A study of Mus musculus with 2 samples.

Results

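The apoptosis regulators are a set of 49 mouse genes that start, carry out or restrain programmed cell death, chosen by name from the BCL2 family, the caspases and their inhibitors, the death receptors with their adaptors, the factors released from mitochondria, the DNA-degrading proteins and the p53 circuit. A member was measured where a probe set of the array was annotated to its symbol alone, which held for 43 of the 49 members among 14860 genes measured in this way. Bax, Cycs, Birc2, Tradd, Ripk1 and Trp53 had no such probe set in the annotation used here and are not analysed here. Embryos were wild-type, of the outbred stock CD1, and taken at embryonic day 10.5 from 8 litters. Their limb buds were divided at the midline into anterior tissue, on the thumb side, and posterior tissue, on the little-finger side. RNA of each tissue was pooled and hybridised to 1 Affymetrix array, so each group is 1 array, neither has a replicate, and the differences carry no test and no p-value. Which limb pairs entered the pools is not stated in the labels. The values are log2 signals summarised by RMA, and every difference below is a log2 difference between the posterior and the anterior array unless a fold is given.

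Apoptosis runs along a pair of connected routes. In the mitochondrial route BH3-only proteins neutralise the survival proteins of the BCL2 family and set free the effectors BAX and BAK, which open the outer mitochondrial membrane, and cytochrome c then assembles APAF1 and an initiator caspase into the apoptosome. In the death receptor route ligand-bound receptors recruit FADD and an initiator caspase at the plasma membrane. Both routes end in executioner caspases, which cut the inhibitor of the DNase CAD, and inhibitor of apoptosis (IAP) proteins hold caspases in check. In limb buds, programmed death is known from the anterior and posterior margins, the apical ridge and, later, the tissue between the digits, with an extent that differs between species.

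Most apoptosis regulators had similar values in anterior and posterior tissue. Dffa, the inhibitor and chaperone of the DNase CAD, was 1.43-fold higher in posterior tissue, and Pmaip1, which encodes the BH3-only protein NOXA, was 1.31-fold higher in anterior tissue. No other measured member reached 1.3-fold, the selection the submitters named. Thus 1 of 43 members (2.33%) passed toward posterior tissue against 3.77% of all genes measured, and 1 of 43 (2.33%) toward anterior tissue against 4.8% of all genes. In either direction 4.65% of the members passed against 8.57% of all genes, so the members' share was not above the background. The median difference of the 43 members was 0.03 toward anterior tissue, and that of all genes was 0.04 toward anterior tissue.

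Detection required that at least 1 array exceed 5.06 (the detection floor), the 95th percentile of 853 sensory receptor and beta-defensin genes that are not known from limb buds. By this rule 35 of 43 members were detected, all 35 of them in both arrays. Over all genes 9017 of 14860 were above the floor in at least 1 array. Among detected members 5.71% passed 1.3-fold in either direction, against 6.53% of detected genes. On each side 1 of 35 (2.86%) passed, against 1.85% of detected genes toward posterior and 4.68% toward anterior tissue. The 8 members not detected were Bid, Bbc3, Casp1, Casp12, Fas, Fasl, Ripk3 and Dapk2. Of the detected members 22 were lower and 12 higher in posterior tissue, and 1 had the same value in both arrays. Detected genes as a whole leaned the same way, with 66.8% lower in posterior tissue and a median of 0.07 toward anterior tissue, against 62.9% and 0.05 for the detected members. Once the trend of the difference with level was removed, the median of detected genes was 0.00 and that of detected members 0.03 toward posterior tissue.

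In place of a replicate error, each difference is set beside a local spread, the robust standard deviation of the differences of the 500 genes nearest in mean level. This spread holds both noise and real differences of the neighbouring genes and is not an error of the gene itself. Differences exceeded this spread in 15 of 43 members (34.9%), against 37.5% of all genes. They exceeded it by a factor of 2 in 4 members (9.30%), namely Dffa, Pmaip1, Bnip3l and Casp6, against 11.5% of all genes. Because the ratio drifts with level, each difference was also recomputed after a smooth curve (lowess) of difference against level was subtracted. Hrk then only just reached 1.3-fold toward posterior tissue, at 0.37857 beside a threshold of 0.37851, and Pmaip1 fell under 1.3-fold.

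**Figure D1:**
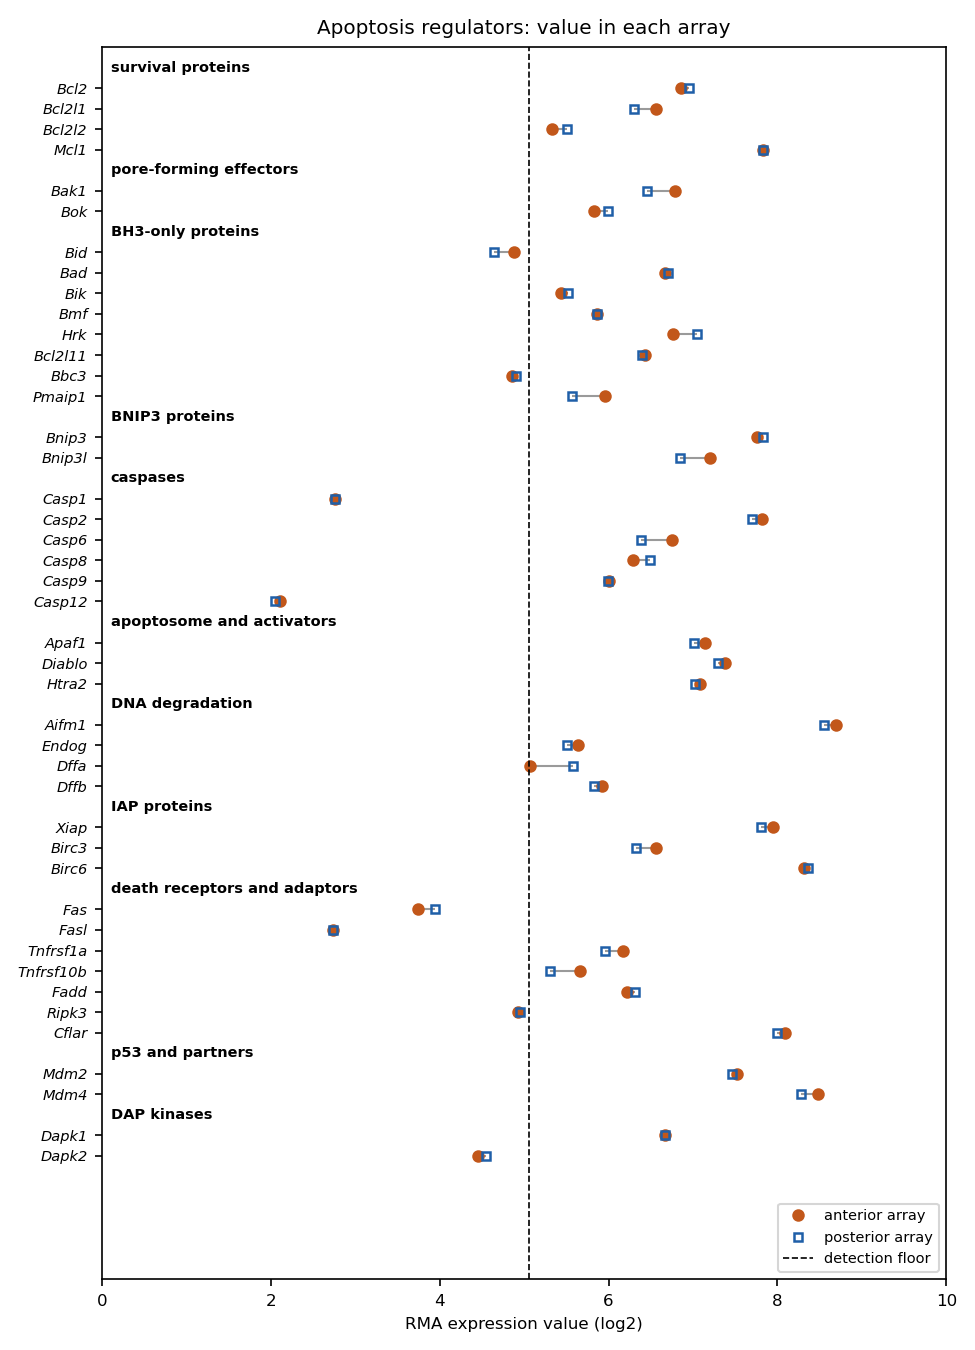
RMA expression value (log2, horizontal axis) of each of the 43 measured apoptosis regulators in the anterior array (filled circles) and the posterior array (open squares), grouped by role, with the detection floor of 5.06 as a dashed line. Most pairs of symbols lie close together, Dffa is the widest pair, and Casp1, Casp12 and Fasl lie far under the floor in both arrays.

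The labels and the tissue were checked with genes of known position. Shh, the posterior signalling molecule, measured 4.80 on the anterior array, under the floor, and 5.77 on the posterior array. Ptch1, a receptor and target of Hedgehog signalling, had 7.41 and 8.58. Alx4, an anterior homeobox gene, had 5.77 and 5.13. The mesenchymal marker Prrx1 had 10.69 and 10.56, and all 6 limb mesenchyme markers were detected in both arrays. Of these 6 genes 4 (Prrx2, Twist1, Msx1 and Lhx2), or 66.7%, were past 1.3-fold toward anterior tissue, against 4.8% of all genes. Once the trend with level was removed, 3 of them were, against 613 of 14860 genes, and Twist1 fell to 1.28-fold. Arrays correlated with Pearson's r = 0.993 over all genes, which are not replicates.

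DNA next to the start of transcription was compared between members that were and were not detected. RefSeq sequences (build GRCm38.p6) gave the 250 bases before 49 annotated starts of 38 measured members. CpG dinucleotides are frequent upstream of many genes that are active in most cell types and sparse upstream of many genes restricted to a few. The upstream sequences of 4 members are shown, chosen after their values were seen: Dffa, the member furthest toward posterior tissue, Casp6, the member furthest toward anterior tissue among those with a sequence here, and Fasl and Casp12, which were not detected. Capitals mark CpG.
Dffa (chr4:149103892-149104141, plus strand): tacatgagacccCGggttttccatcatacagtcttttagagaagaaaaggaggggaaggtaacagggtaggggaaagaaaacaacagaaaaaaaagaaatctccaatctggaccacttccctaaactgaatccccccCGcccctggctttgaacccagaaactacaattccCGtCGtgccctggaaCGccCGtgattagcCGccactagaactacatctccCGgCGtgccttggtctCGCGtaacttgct
Casp6 (chr3:129901165-129901414, plus strand): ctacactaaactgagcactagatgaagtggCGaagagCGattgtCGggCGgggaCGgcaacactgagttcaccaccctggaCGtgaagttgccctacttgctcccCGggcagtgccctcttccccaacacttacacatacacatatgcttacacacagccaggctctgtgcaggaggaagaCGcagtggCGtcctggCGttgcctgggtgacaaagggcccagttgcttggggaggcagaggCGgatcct
Fasl (chr1:161788496-161788745, minus strand): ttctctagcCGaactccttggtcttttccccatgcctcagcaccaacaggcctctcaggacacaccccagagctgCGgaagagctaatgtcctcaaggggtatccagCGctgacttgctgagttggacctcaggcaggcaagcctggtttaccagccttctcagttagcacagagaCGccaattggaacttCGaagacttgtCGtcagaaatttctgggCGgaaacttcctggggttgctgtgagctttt
Casp12 (chr9:5345226-5345475, plus strand): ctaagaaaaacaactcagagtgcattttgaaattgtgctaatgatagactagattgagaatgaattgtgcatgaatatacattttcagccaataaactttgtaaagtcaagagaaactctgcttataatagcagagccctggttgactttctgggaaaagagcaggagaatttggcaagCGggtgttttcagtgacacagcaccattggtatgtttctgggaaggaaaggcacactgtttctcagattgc
Dffa and Casp6 held 11 CpG each, Fasl 7 and Casp12 a single one, as did Casp1 (1 CpG). Over the members the median was 17.5 CpG in 30 detected genes, ranging from 4.5 to 42, and 9.5 in 8 genes that were not detected, ranging from 1 to 29. Among all genes with a sequence the medians were 16 in 7330 detected and 4.5 in 4555 other genes. Sets of members overlapped widely: Bbc3, which was not detected, held a mean of 29 CpG over its 3 starts, while Xiap, detected in both arrays, held 5. These are descriptions of sequence and detection, with no test.

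**Figure D2:**
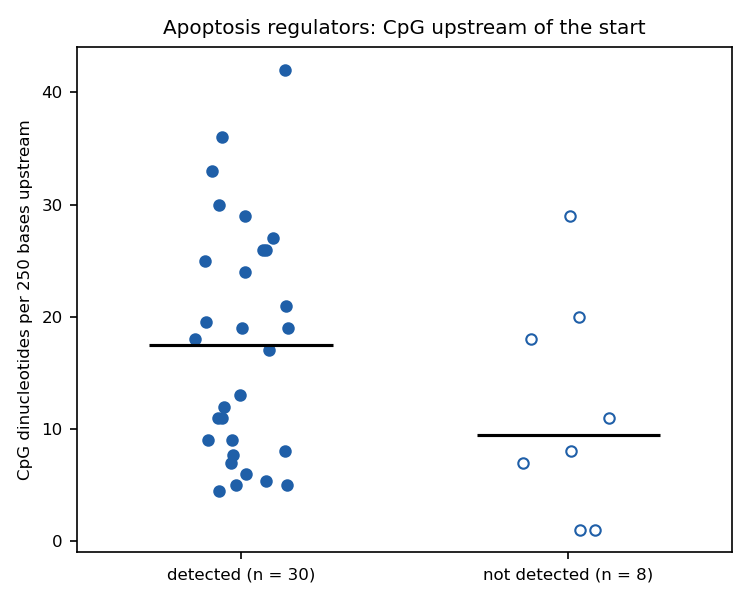
Number of CpG dinucleotides in the 250 bases upstream of the start (vertical axis, mean over the starts of a gene) for 30 detected and 8 not detected apoptosis regulators; each point is 1 gene and bars are medians (17.5 and 9.5). The groups overlap, and the lowest points, at 1 CpG, are Casp1 and Casp12.

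Motifs of factors with a known place in this axis or in apoptosis were searched in the same sequences, on both strands. The GLI motif GACCACCCA, bound by the effectors of Hedgehog signalling, was in 0 of the 49 member sequences and in 0.218% of 32536 sequences of all genes. CATCTG, an E-box bound by HAND2, was in 2 (4.08%), those of Bcl2l1 and Birc3, against 14.4%. The p53 half-site was in 3 (6.12%), those of Bmf, Fasl and Mdm2, against 7.12%. A match in these letters is not a binding site, and sites elsewhere are not covered by this window.

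Survival proteins of the BCL2 family differed little. Mcl1, a short-lived survival protein, had 7.82 in anterior and 7.83 in posterior tissue. Bcl2, which gave the family its name, had 6.86 and 6.95, and Bcl2l2, which encodes BCL-W, had 5.33 and 5.51. Only Bcl2l1, which encodes BCL-XL, leaned toward anterior tissue, with 6.56 and 6.30, a difference of 0.26 beside a local spread of 0.17. None of the 4 reached 1.3-fold. The median of the 4 was 0.05 toward posterior tissue.

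The measured effectors lay on opposite sides. Bak1, which forms pores in the outer mitochondrial membrane, had 6.78 in anterior and 6.46 in posterior tissue, a difference of 0.33 or 1.25-fold toward anterior tissue beside a local spread of 0.17. Bok, a related protein that is not held back by BCL2 in the same way, had 5.83 and 5.99, or 0.16 toward posterior tissue. Both differences stayed under 1.3-fold.

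BH3-only genes, the sensors upstream of the effectors, split evenly by their measured values, with 4 of 8 on each side and a median of 0.01 toward posterior tissue. Pmaip1, a p53 target that binds MCL1, had 5.96 in anterior and 5.56 in posterior tissue, a difference of 0.39 beside a local spread of 0.17. Of the 500 genes nearest to it in level 7.40% were at least as far apart. Hrk, known from neurons as a partner of BCL-XL, lay furthest the other way, with 6.76 and 7.05, a difference of 0.29 beside a local spread of 0.16, or 1.22-fold. These were the members of the group with the widest differences, and they pointed in opposite directions.

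The remaining BH3-only genes were closer together. Bcl2l11, which encodes BIM, had 6.43 and 6.39, and Bmf, a sensor tied to the cytoskeleton, 5.87 and 5.86. Bad, which is controlled by survival kinases, had 6.67 and 6.71, and Bik 5.44 and 5.52. All of these lay within 0.10 of each other and within their local spreads. Bid, which links death receptors to mitochondria, had 4.88 and 4.64 and Bbc3, which encodes the p53 target PUMA, 4.85 and 4.91, under the floor in both arrays.

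Bnip3 and Bnip3l, mitophagy receptors of the outer mitochondrial membrane, lay on opposite sides. Bnip3l had 7.20 in anterior and 6.84 in posterior tissue, a difference of 0.35 (1.28-fold) beside a local spread of 0.15, and 8% of its neighbours in level were at least as far apart. Bnip3 had 7.75 and 7.83, or 0.08 toward posterior tissue. Bnip3l is known for clearing mitochondria from maturing red blood cells. The mean level of the 8 measured red blood cell markers was 7.07 in anterior and 7.14 in posterior tissue. Their median difference was 0.006 toward posterior tissue, and 0 over the 7 detected ones. Of these markers 4 were higher and 3 lower in posterior tissue, and of the 7 detected ones 3 were higher and 3 lower. Klf1 passed 1.3-fold toward posterior tissue (1.42-fold) without being detected. Gata1, with an anterior value only 0.04 above the floor, lay 0.22 the same way. Epor, Slc4a1 and Ank1, all detected, lay 0.12, 0.07 and 0.05 toward anterior tissue. The part of red blood cells in the difference of Bnip3l was not tested.

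**Figure D3:**
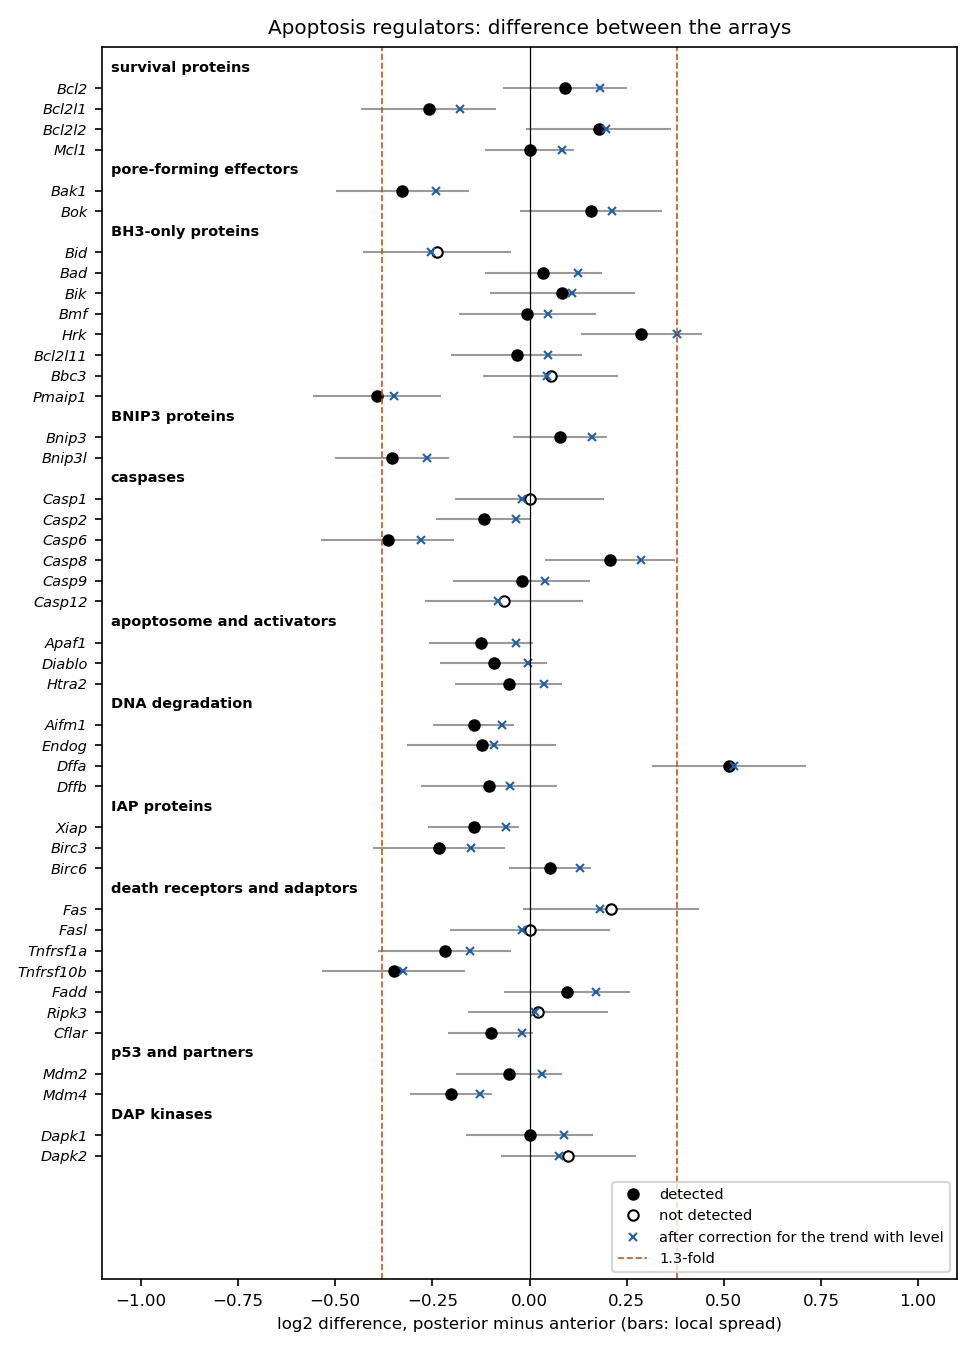
Log2 difference, posterior minus anterior (horizontal axis), of each measured apoptosis regulator, grouped by role; bars are the local spread, open circles are genes not detected, crosses are the values after correction for the trend with level and dashed lines mark 1.3-fold. Dffa lies past the line on the posterior side and Pmaip1 just past it on the anterior side, and after the correction Hrk reaches the posterior line while Pmaip1 falls inside.

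Among caspases, Casp6, an executioner, differed most. It had 6.75 in anterior and 6.39 in posterior tissue, a difference of 0.37 (1.29-fold) beside a local spread of 0.17, just under the threshold. Casp8, the initiator of the death receptor route, lay on the other side, with 6.29 and 6.49, or 0.21 toward posterior tissue. The initiators Casp9, which acts in the apoptosome, and Casp2 were closer, with 6.01 and 5.99 for Casp9 and 7.82 and 7.70 for Casp2. Of these initiators Casp8 alone differed by more than its local spread (0.17). Casp1, the inflammatory caspase that matures interleukins, had 2.76 in both arrays and Casp12, another member of the inflammatory group, 2.11 and 2.04, all far under the floor.

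Genes of the apoptosome and of the proteins that leave mitochondria with cytochrome c all leaned slightly toward anterior tissue, as detected genes did in general. Apaf1, the scaffold, had 7.14 in anterior and 7.02 in posterior tissue. Diablo, which displaces IAP proteins from caspases, had 7.38 and 7.29, and Htra2, a mitochondrial protease, 7.08 and 7.02. None of these differences exceeded its local spread, and the largest was 0.13. Once the trend with level was removed, Htra2 lay 0.04 toward posterior tissue, and Apaf1 and Diablo stayed on the anterior side.

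In DNA degradation Dffa stood against its partner. Dffa had 5.07 in anterior and 5.58 in posterior tissue, a difference of 0.51 beside a local spread of 0.20. Among its 500 neighbours in level 3.40% were at least as far apart. The anterior value lay only 0.01 above the floor, so the difference of Dffa was measured near the limit of detection. Dffb, the DNase itself, had 5.92 and 5.82, or 0.10 toward anterior tissue. Endog and Aifm1, a mitochondrial nuclease and a mitochondrial oxidoreductase that can move to the nucleus, had 5.63 and 5.51 and 8.70 and 8.55, both toward anterior tissue by less than 0.15.

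IAP proteins restrain caspases or act as ubiquitin ligases of death and survival signalling. Birc3, which encodes cIAP2 and acts at TNF receptors, had 6.56 in anterior and 6.32 in posterior tissue, a difference of 0.23 beside a local spread of 0.17. Xiap, the direct caspase inhibitor, had 7.95 and 7.80, and Birc6, a very large ubiquitin-conjugating enzyme, 8.31 and 8.36. None of the 3 measured genes reached 1.2-fold.

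Of the death receptor group 7 of 9 genes were measured and 4 detected. Tnfrsf10b, the mouse receptor for TRAIL, had 5.66 in anterior and 5.31 in posterior tissue, a difference of 0.35 (1.27-fold) beside a local spread of 0.18. Tnfrsf1a, the main TNF receptor, had 6.17 and 5.96, or 0.22 toward anterior tissue. The detected receptors thus both lay higher in anterior tissue, under 1.3-fold. The adaptor Fadd had 6.22 and 6.31, and Cflar, which encodes the caspase-like inhibitor FLIP, 8.09 and 7.99. Fas, with 3.74 and 3.95, its ligand gene Fasl, with 2.73 in both arrays, and the necroptosis kinase Ripk3, with 4.93 and 4.95, lay under the floor.

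The partners of p53 differed by no more than 0.20. Mdm4, which blocks p53 activity, had 8.48 in anterior and 8.28 in posterior tissue, a difference of 0.20 beside a local spread of 0.11, and Mdm2, the ubiquitin ligase of p53 and itself its target, had 7.52 and 7.46. Of the calmodulin-regulated death-associated kinases, Dapk1 had 6.66 in both arrays, and Dapk2 had 4.45 and 4.55, under the floor.

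**Figure D4:**
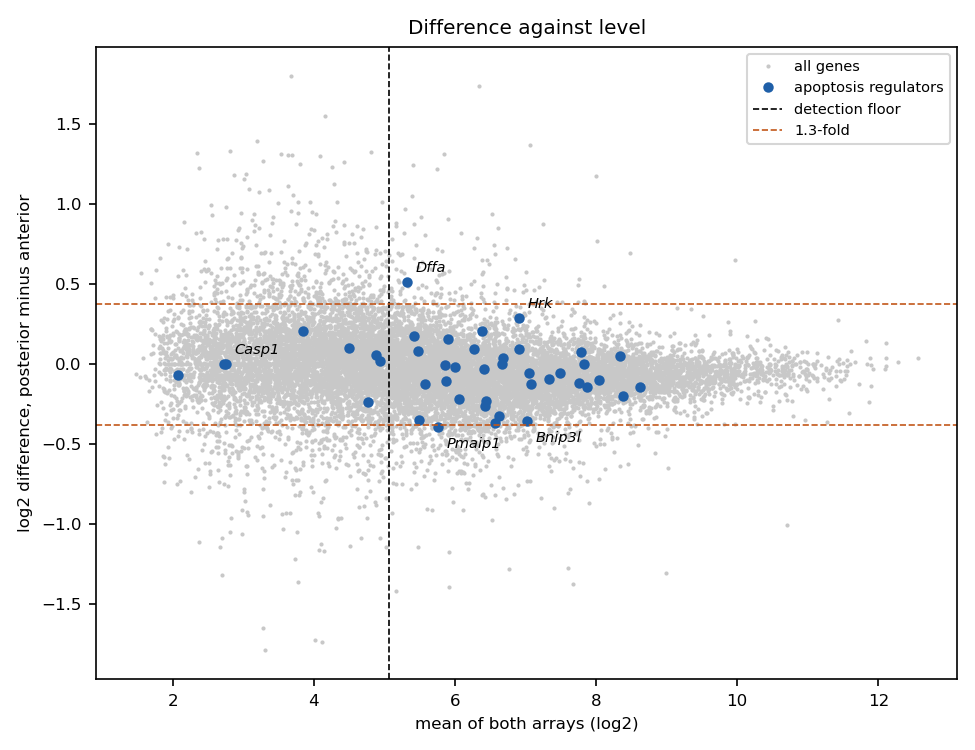
Log2 difference, posterior minus anterior (vertical axis), against the mean of both arrays (log2, horizontal axis) for 14860 genes (grey) and the 43 apoptosis regulators (blue), with the detection floor and 1.3-fold as dashed lines. The members lie inside the cloud of genes of their level, with Dffa near its upper edge close to the floor.

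Further genes of the same processes were taken from lists outside the members. Of 20 p53 targets 18 were measured, with 1 of them (5.56%) past 1.3-fold on each side, against 3.77% of all genes toward posterior and 4.8% toward anterior tissue. The posterior one was Cdkn1a, the cell cycle inhibitor p21, with 5.07 in anterior and 5.58 in posterior tissue (1.43-fold) and an anterior value at the floor like that of Dffa, and the other was Aen, an apoptosis-enhancing nuclease, with 5.99 and 5.56 (1.35-fold). Among the detected targets Perp, a membrane protein of desmosomes, followed at 0.29 toward anterior tissue. Siva1, an apoptosis-inducing factor chosen after its values were seen, lay 0.26 toward posterior tissue beside a local spread of only 0.08, and Zmat3, not detected, 0.34 the same way. The list median was 0.07 toward anterior tissue, with 13 of the 18 targets lower and 5 higher in posterior tissue. Of the 14 detected targets 11 (78.6%) were lower there, against 66.8% of detected genes. Among them Trp53inp1, Sesn1 and Gtse1 lay 0.28, 0.25 and 0.20 toward anterior tissue. After the correction for level the median of the detected targets was 0.01 toward anterior tissue. Pmaip1, a p53 target among the members, and Cdkn1a lay on opposite sides, and Bbc3 and Mdm2 differed by 0.05 in either direction. These pairs do not stand for the list, most of which was lower in posterior tissue.

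Of 18 measured genes of TNF and NF-kB signalling 2 (11.1%) passed 1.3-fold toward anterior tissue and 0 toward posterior tissue, against 4.8% and 3.77% of all genes. Nfkbia, the inhibitor of NF-kB that NF-kB itself induces, had 5.77 in anterior and 5.28 in posterior tissue, a difference of 0.49 or 1.40-fold, and Mlkl, the effector of necroptosis, was not detected. Among the detected genes Tnfrsf12a, a TNF receptor family member, and Map3k7, the kinase TAK1, followed at 0.26 and 0.23 toward anterior tissue, while Tnfrsf21, another receptor of the family, lay 0.20 toward posterior tissue. Tnf itself, not detected, lay 0.27 toward posterior tissue. Of 13 measured genes for the engulfment of dying cells 1 (7.69%) passed toward anterior and 0 toward posterior tissue. It was Mfge8, a bridge between dying cells and phagocytes, with 6.91 and 6.49 (1.34-fold toward anterior tissue). After the correction for level Mfge8 was 1.26-fold, under the threshold. The engulfment receptors Mertk and Axl lay 0.23 and 0.18 toward anterior tissue. Of 7 measured genes among the other caspases, BCL2 and BIR proteins 0 passed, and 2 were detected, Birc5 (survivin) at 0.14 and Bcl2l12 at 0.15 toward anterior tissue. Over all their measured genes the medians of these lists were 0.11, 0.06 and 0.14 toward anterior tissue, beside 0.04 for all genes. Over their detected genes they were 0.15, 0.12 and 0.15, beside 0.07 for detected genes. With the trend with level removed, these became 0.06, 0.06 and 0.07 toward anterior tissue, beside 0.00 for detected genes. No list was tested.

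Macrophages take up dying cells and express several of these genes. Of 13 macrophage markers 9 were not detected, among them Csf1r, Adgre1 and Ptprc, and the mean level of the list was 4.50 in anterior and 4.40 in posterior tissue. Tyrobp, with 6.40 and 5.54, was 1.82-fold higher on the anterior side. Of the undetected markers C1qa passed 1.3-fold toward anterior and Cd14 toward posterior tissue. The other detected markers did not share a side: Cd68, with 5.80 and 5.66, and Fcer1g, with 5.41 and 5.37, were lower in posterior tissue, and Laptm5, with 5.50 and 5.64, was higher. The part of such cells in the anterior differences of Pmaip1, Tnfrsf10b and Mfge8 was not tested. The mean level was 6.55 and 6.60 for 8 ectoderm markers and 6.16 and 6.04 for 8 endothelial markers. Their median differences were 0.02 and 0.10 toward anterior tissue. Krt5 lay 1.40-fold toward posterior tissue, and Plvap, with a posterior value under the floor, 1.31-fold toward anterior tissue. In pooled tissue, fewer cells of a type and less RNA per cell cannot be told apart.

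**Figure D5:**
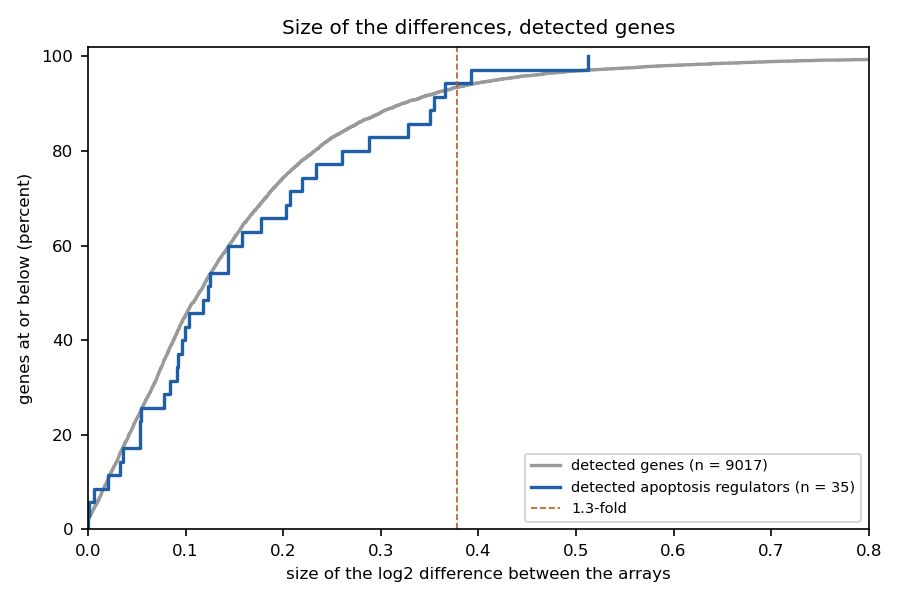
Cumulative share of genes (percent, vertical axis) by the size of the log2 difference between the arrays (horizontal axis) for 35 detected apoptosis regulators (blue) and 9017 detected genes (grey), with 1.3-fold as a dashed line. At 1.3-fold the curves lie close together, with 5.71% of the members and 6.53% of the genes beyond it.

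The size of the differences, taken without direction, had a median of 0.12 in the detected members and 0.11 in detected genes. Next to the threshold lay Pmaip1 at 1.31-fold inside and Casp6 at 1.29-fold outside, both toward anterior tissue. Bnip3l at 1.28-fold, Tnfrsf10b at 1.27-fold and Bak1 at 1.25-fold followed outside, on the same side. Detected genes as a whole leaned this way too, with 4.68% past 1.3-fold toward anterior and 1.85% toward posterior tissue. Detected genes just under 1.3-fold were not counted, so these members have no background share of their own. Once the trend with level was removed, each of these members' differences was smaller and under 1.3-fold, still toward anterior tissue.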

How the data were processed

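The authors' deposited table holds RMA expression values on the log2 scale for 23332 probe sets (transcript clusters). Per the labels, they were made in Expression Console at the core gene level. Build mm9 is named in the submitters' processing notes; no software version is given in the sources used here. In its usual form RMA equalises the distributions of the arrays, and ratios of genes with low signal may come out compressed. The table has 2 columns, each matched to a sample, and 0 others.

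From these values, the platform annotation gave 1 symbol for 14996 probe sets, several for 1019 and no entry for 7317. Probe sets of a symbol were averaged, which gave 14860 genes; each measured member had a single probe set, and 2 probe sets that a member shares with another gene were left out. Local spread, lowess correction (fraction 0.3) and counts were computed in Python 3.11.15 with statsmodels 0.14.6 and tested on simulated data. With 1 array per group no test was possible, and precision is limited by the number of arrays. Upstream sequences came from a RefSeq table matched by symbol. All 49 members are accounted for; of the other lists, up to 3 detected genes with the widest differences are named, beside others that complete a count or illustrate a list, chosen after their values were seen. Members and lists were chosen with earlier results of these data known. The alternatives were detected genes alone, median-centred arrays, the lowess correction, the brightest probe set, an offset of 32 on the linear scale, thresholds of 1.2-fold and 1.5-fold, and floors at the 90th and 99th percentiles.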

Additional observations from a re-analysis of the deposited data

How the results depend on the processing

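The median difference of the members, 0.03 toward anterior tissue, stayed within 0.06 of 0 under every alternative run and lay 0.01 toward posterior tissue under the lowess correction. The count of 1 member past 1.3-fold toward posterior tissue became 2 with that correction (Dffa, and Hrk only just past the line). That count became 2 at a 1.2-fold threshold, and 0 with an offset of 32 on the linear scale and at 1.5-fold. The count of 1 toward anterior tissue became 0 with median-centred arrays, after the correction, with the offset and at 1.5-fold, and 5 at 1.2-fold. All genes were not counted at 1.2-fold and 1.5-fold, so the member counts there have no background beside them. Whether those counts exceed such a background on either side cannot be said. Over all genes the counts toward posterior and anterior tissue, 560 and 713, became 651 and 626 with centring, 573 and 613 with the lowess correction (224 and 281 among detected genes, from 167 and 422) and 60 and 157 with the offset. Pmaip1 therefore depends on the scaling, and Dffa falls under 1.3-fold only with the offset, among the alternatives at that threshold. The correction changed the sign of 5 members and median-centring that of 2, all of them within 0.06 of 0, and moved the 3 members with a difference of exactly 0 off it. Floors at the 90th and 99th percentiles gave 38 and 25 detected members, beside 10436 and 6340 of 14860 genes. The higher floor, at 6.01, left out both Dffa and Pmaip1. The causes were not tested. No paired analysis was possible because each group is 1 array. Leaving out an array was not possible either.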

Other observations

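Casp1, Fasl and Dapk1 had values identical in both arrays to every deposited digit. This held for 3 of 43 measured members (6.98%), for 493 of 14860 genes (3.32%), for 179 of 9017 detected genes (1.99%) and for 314 of 5843 genes that were not detected (5.37%). A difference of exactly 0 in such a gene is a product of the summarised values and is no measure of how precisely its level is known. Dapk1, at 6.66, was the only one of the 3 above the floor. The cause was not tested.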
